A study of Mus musculus with 2 samples.

Results

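Immediate early genes are transcribed within minutes of a stimulus, from factors already present in the cell. The Fos and Jun proteins pair through a leucine zipper to form the transcription factor AP-1, Jun proteins can also pair with each other, and ATF3 pairs with Jun proteins. EGR1 and EGR3 are zinc finger factors induced by the same kinase pathways. In skin, AP-1 acts in epidermal differentiation, in wound repair and in the activation of fibroblasts and macrophages.

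The genes described here are the 10 listed Fos, Jun, Egr and Atf3 genes, chosen by name out of 24421 gene symbols in the table of counts. They are Fos, Fosb, Fosl1, Fosl2, Jun, Junb, Jund, Egr1, Egr3 and Atf3, and all 10 were above 3 counts in both libraries. RNA came from full-thickness back skin of wild type C57BL6/J mice. The non-stretched library was labelled as without strain at day 5, and the stretched library came from skin stretched for 5 days by a glued device, with a labelled strain of 33%. In the methods such a value is the initial strain, raised by a fixed step each day to offset growth of the skin. The methods describe female mice of 8 weeks in the resting phase of the hair cycle. The hair cycle stage of the sequenced skin was not tested here, and hair follicle markers, given below, differed between the libraries. There was 1 library per condition, and the sources used here do not give the number of animals behind each library. Controls of the study's hair growth experiment wore no device, and for the sequenced control this is not stated separately. No difference therefore has a replicate check and no p-value is given. Each fold change is the ratio of CPM (the count scaled to the library's total) in stretched skin to that in non-stretched skin, with an exact 95% interval that covers counting error only and compares these libraries, not the conditions. In whole skin, fewer cells of a type and less RNA per cell cannot be told apart.

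The libraries held 14152379 counts in non-stretched skin and 11648655 in stretched skin, so that a floor of 3 counts corresponds to 0.212 and 0.258 CPM. A gene was taken as measured when either library gave it more than 3 counts, which left 16255 genes. Their log2 fold changes had a median of -0.12, with quartiles of -0.38 and 0.19. Markers of other cell types differed between the libraries. The summed CPM of 6 macrophage markers was 367 in non-stretched and 796 in stretched skin, with all 6 intervals above 0. The 3 measured neutrophil markers summed to 12.4 and 60.5 CPM, also with all intervals above 0, and a further neutrophil marker, Mpo, had 0 and 3 counts. The 6 hair follicle markers, of the hair shaft and the inner root sheath, summed to 7307 and 1322 CPM with all intervals below 0. Most of that sum came from Krt71 (4267 and 755 CPM) and Krt25 (2052 and 432 CPM), keratins of the inner root sheath. The 4 adipocyte markers summed to 997 and 641 CPM with all intervals below 0, and the 3 melanocyte markers to 260 and 110 CPM, also with all intervals below 0. Of 6 skeletal muscle markers 5 had intervals below 0 and 1 above, and their sum was 24229 and 15565 CPM. The 5 keratinocyte markers, which mark the epidermis, were abundant in both (14088 and 14914 CPM, 3 intervals above 0 and 1 below), and all 5 fibroblast markers had intervals above 0. Their summed level of 26819 and 49616 CPM was mostly that of the collagen genes Col1a1 (11879 and 23813 CPM) and Col1a2 (12955 and 23676 CPM), while Pdgfra, Dcn and Lum had log2 fold changes of 0.18, 0.06 and 0.25. Mast cell markers summed to 216 and 297 CPM and endothelial markers to 166 and 225 CPM, each with 3 intervals above 0 and 1 below (Kit at -0.63 and Kdr at -0.37). Of 3 Schwann cell markers (264 and 303 CPM) 2 had intervals above 0 and 1 included 0. Of 3 measured T cell markers (6.57 and 11.7 CPM) only Cd4, with 15 and 56 counts, had an interval above 0. No listed marker with a row in the table of counts was at 0 in both libraries, and the listed neutrophil marker Ly6g had no row in the table used here. The part of these cell types in the values of the 10 genes was not tested.

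The windows before a RefSeq start of 4 of the genes are shown because they share a short element, and their transcripts went different ways. Promoter windows were taken from RefSeq on GRCm38.p6, the assembly that mm10 names, and were found for 7 of the 10 genes (Fos, Fosb, Fosl2, Jun, Junb, Jund and Atf3). Each line gives the 250 bases before the annotated start, 5′ to 3′ on the gene's strand. Capitals mark the cAMP response element core TGACG on either strand (CGTCA where it lies on the other strand), the TATA box TATAAA and the EGR site GCGGGGGCG. The RefSeq start is not the 5′ end of the counted gene in every case. In GENCODE M21 the start used for Atf3 lies 34.7 kb inside the gene and 7 bases of its window are exonic. That for Fosl2 lies 671 bases inside, and all 250 bases of its window are exonic. That for Jund lies 1.21 kb before the gene. For Fos, Fosb, Jun and Junb the 2 starts lie within 30 bases of each other.
Fos: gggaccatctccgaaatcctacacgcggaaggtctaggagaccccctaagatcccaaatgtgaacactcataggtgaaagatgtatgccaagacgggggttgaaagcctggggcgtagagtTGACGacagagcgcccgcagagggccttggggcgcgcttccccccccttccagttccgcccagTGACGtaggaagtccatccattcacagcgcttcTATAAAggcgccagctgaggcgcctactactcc
Fosb: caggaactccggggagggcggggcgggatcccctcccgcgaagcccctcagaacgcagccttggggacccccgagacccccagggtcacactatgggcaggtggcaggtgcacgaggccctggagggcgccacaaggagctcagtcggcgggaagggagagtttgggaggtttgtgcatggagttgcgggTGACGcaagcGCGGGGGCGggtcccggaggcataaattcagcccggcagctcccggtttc
Junb: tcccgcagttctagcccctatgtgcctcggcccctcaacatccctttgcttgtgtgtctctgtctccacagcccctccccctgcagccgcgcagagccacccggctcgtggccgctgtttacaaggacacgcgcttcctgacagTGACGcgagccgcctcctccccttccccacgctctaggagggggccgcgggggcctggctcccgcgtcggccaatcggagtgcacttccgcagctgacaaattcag
Atf3: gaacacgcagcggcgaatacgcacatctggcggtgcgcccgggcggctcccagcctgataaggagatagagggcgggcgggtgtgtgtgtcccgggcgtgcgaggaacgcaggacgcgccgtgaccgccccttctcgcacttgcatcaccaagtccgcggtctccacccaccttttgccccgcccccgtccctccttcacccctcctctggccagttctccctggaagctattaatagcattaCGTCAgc
The window of Fos lies at chr12:85473640-85473889 on the plus strand, that of Fosb at chr7:19310046-19310295, that of Junb at chr8:84978749-84978998 and that of Atf3 at chr1:191183334-191183583, all 3 on the minus strand. TGACG occurred on either strand in 4 of the 7 windows and in 17.8% of the 32851 windows in the table. Fos held it at 129 to 125 and at 66 to 62 bases before the start, Fosb at 60 to 56, Junb at 106 to 102 and Atf3 at 7 to 3. Among these 4 genes, Fos and Fosb were higher in stretched skin, and Junb and Atf3 were lower. Fos alone of the 7 held TATAAA, which 12.4% of all windows hold. GCGGGGGCG, in 2.57% of all windows, occurred in Fosb and in the exonic window of Fosl2, of which the first was higher and the second lower in stretched skin. Jun held TGACATCA, a site described for Jun-ATF2 dimers, at 45 to 38 bases before the start, against 2.93% of all windows. The palindromic element TGACGTCA (1.55% of all windows, and itself containing TGACG), the AP-1 site TGACTCA (4.46%) and the CArG box bound by serum response factor (1.47%) were in none of the 7 windows, which says nothing of sequence outside them.

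The 10 genes did not move as a group. In stretched skin 4 had counting intervals above 0 (Fosl1, Fosb, Jund and Fos), 5 had intervals below 0 (Fosl2, Egr3, Egr1, Atf3 and Junb), and the interval of Jun included 0. Among all measured genes, intervals lay above 0 for 18.1% and below 0 for 33.5%. Among the 10316 genes with 300 or more counts over both libraries, a depth that all 10 genes reached, these shares were 20.5% and 43.3%. With TMM scaling, which left the 4 and 5 intervals of the 10 genes as they were, intervals of all measured genes lay above 0 for 24.1% and below 0 for 24.1%. The log2 fold changes of the 10 genes had a median of -0.14, beside -0.12 for all measured genes, and their median was -0.040 with TMM scaling, which shifts all genes alike. Without Fosl1 and Jund, which share 10% or more of their exonic bases with another gene, the median was -0.30, with 2 intervals above 0 and 5 below. Of the 10 genes, 3 lay above the upper quartile of all measured genes, 4 within the quartiles and 3 below the lower quartile. Their summed level was 1624 CPM in non-stretched skin and 1520 CPM in stretched skin, or -0.10 on the log2 scale (interval -0.12 to -0.07). That lower sum depended on scaling, since it was 0.0071 with TMM (interval -0.02 to 0.04), and per length the summed FPKM was 540 and 543.

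**Figure D1:**
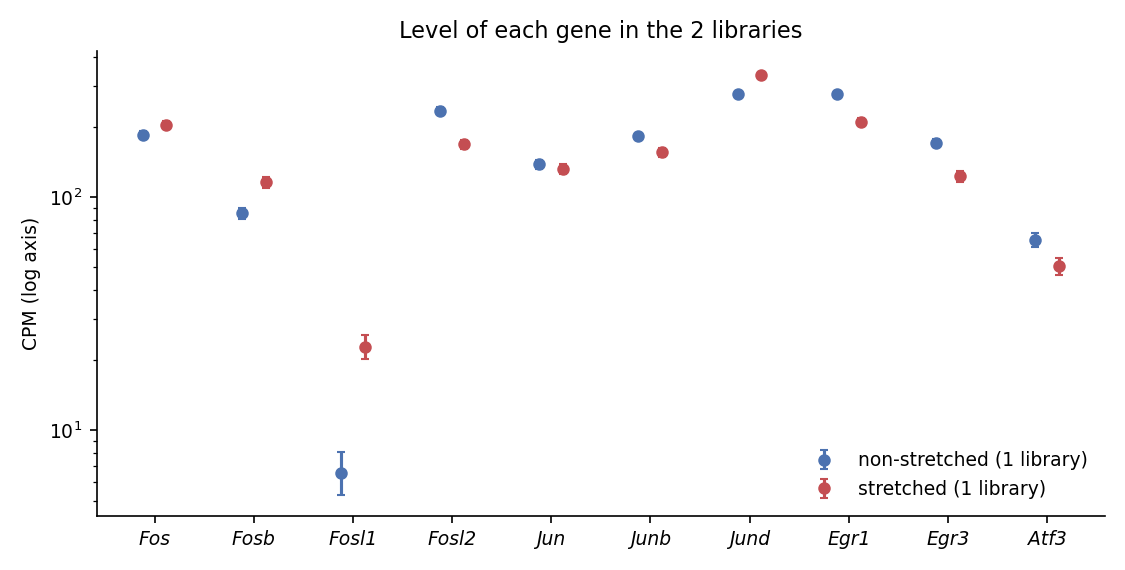
CPM of each of the 10 genes in the non-stretched and the stretched library on a log axis, 1 point per library with exact 95% Poisson intervals of its count. Fosl1 has the lowest level in both libraries and the widest gap between them, from 6.57 to 22.8 CPM, whereas Jun stands at 138 and 132 CPM.

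The 4 Fos genes encode the partners that bind DNA only when paired with a Jun protein. Fosl1, which encodes FRA-1, had 93 counts (6.57 CPM) in non-stretched skin and 266 counts (22.8 CPM) in stretched skin. Its CPM was 3.47-fold higher in stretched skin, or 1.80 on the log2 scale (interval 1.45 to 2.15), at percentile 98.2 of all measured genes. Fosl1 was the only one of the 10 genes called by the study's rule, a product of the FPKM values of both libraries over 10 together with a fold of 2 or more in either direction. FPKM (counts per length and library total) was computed here from the deposited counts, and 1 was added to each value, an addition the methods do not state. So applied, the rule called 2.61% of 10910 genes higher and 2.44% lower. The numbers of genes called differ from those the paper reports, so these are not the study's own calls. With nothing added, Fosl1 was again the only one of the 10 called, against 2.94% of 9684 genes higher and 2.86% lower. By the ratio of CPM alone Fosl1 was again the 1 gene of the 10 at least 2-fold higher and 0 were 2-fold lower, against 4.98% and 5.02% of genes with 20 or more counts. Fosb, whose product also occurs as a truncated isoform that counts per gene cannot separate, had 1209 counts (85.4 CPM) and 1351 counts (116 CPM). Its log2 fold change was 0.44 (interval 0.33 to 0.55). Fos, the founding member of the family, had 2624 counts (185 CPM) and 2389 counts (205 CPM), so its raw count was lower in the smaller library while its share was higher. The log2 fold change of Fos was 0.15 (interval 0.06 to 0.23), within the quartiles of all genes. Fosl2, which encodes FRA-2, went the other way, with 3332 counts (235 CPM) in non-stretched skin and 1962 counts (168 CPM) in stretched skin. Its log2 fold change of -0.48 (interval -0.56 to -0.40) was the lowest of the 10 genes and lay at percentile 18.4 of all measured genes.

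The Fos family showed gains and losses at once, and their balance depended on scaling. The 4 genes together held 512.85 CPM in non-stretched skin and 512.33 CPM in stretched skin (log2 fold change -0.0014, interval -0.05 to 0.05). With TMM scaling the value was 0.10 (interval 0.05 to 0.15), and the summed FPKM was 120 and 134. The 2 Fos-related antigens differed most from each other, with Fosl1 above Fosl2 by 2.28 in log2 fold change (exact conditional interval 1.92 to 2.65), a difference that does not depend on scaling. Fos and Fosb also differed, with a log2 fold change of Fos minus that of Fosb of -0.30 (interval -0.43 to -0.16).

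Fosl1 is the gene of the 10 whose reads are least certain. In GENCODE M21 it lies on chromosome 19 of mm10 from 5447547 to 5455946 on the plus strand. Ccdc85b, a protein-coding gene on the opposite strand from 5453180 to 5457894, covers the whole of the third and the fourth of its 4 exons, or 57.2% of its exonic bases. The kit named in the labels does not mark strand by its standard protocol and the counting of shared reads is not given in the sources used here, so reads of the 2 genes cannot be told apart there. Ccdc85b had 503 counts in non-stretched and 592 in stretched skin, or 0.52 on the log2 scale (interval 0.34 to 0.69). The fold change of Fosl1 exceeded that of Ccdc85b by 1.28 (interval 0.89 to 1.68), so the counts given to the 2 genes were not in 1 ratio in both libraries.

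The Jun genes encode the partners that pair with Fos proteins or with each other. Jund, the member described as constitutively expressed, had 3925 counts (277 CPM) in non-stretched skin and 3896 counts (334 CPM) in stretched skin. Its log2 fold change was 0.27 (interval 0.21 to 0.33), at percentile 78.3 of all measured genes. Gm11175, an antisense gene that is not in the table used here, overlaps 52.6% of the single exon of Jund (chromosome 8, 70698949 to 70700616), so Jund is uncertain in the same way as Fosl1. Jun had 1957 counts (138 CPM) and 1542 counts (132 CPM), and its difference was not detectable at this depth (log2 fold change -0.06, interval -0.16 to 0.03). With TMM scaling its value turned to 0.04. Junb, which can restrain the action of Jun, had 2580 counts (182 CPM) and 1819 counts (156 CPM), a log2 fold change of -0.22 (interval -0.31 to -0.14). This value lay within the quartiles of all measured genes, at percentile 37.7. Independent of scaling, Junb minus Jund was -0.49 (interval -0.60 to -0.38) and Jun minus Jund was -0.33 (interval -0.45 to -0.22) in log2 fold change. Jun and Jund have a single exon in the annotation, as has the longest transcript of Junb, and these 3 genes did not share a direction. Summed over the Jun family, 598 CPM in non-stretched skin stood against 623 CPM in stretched skin, or 0.06 on the log2 scale (interval 0.01 to 0.10), and 0.16 with TMM scaling.

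**Figure D2:**
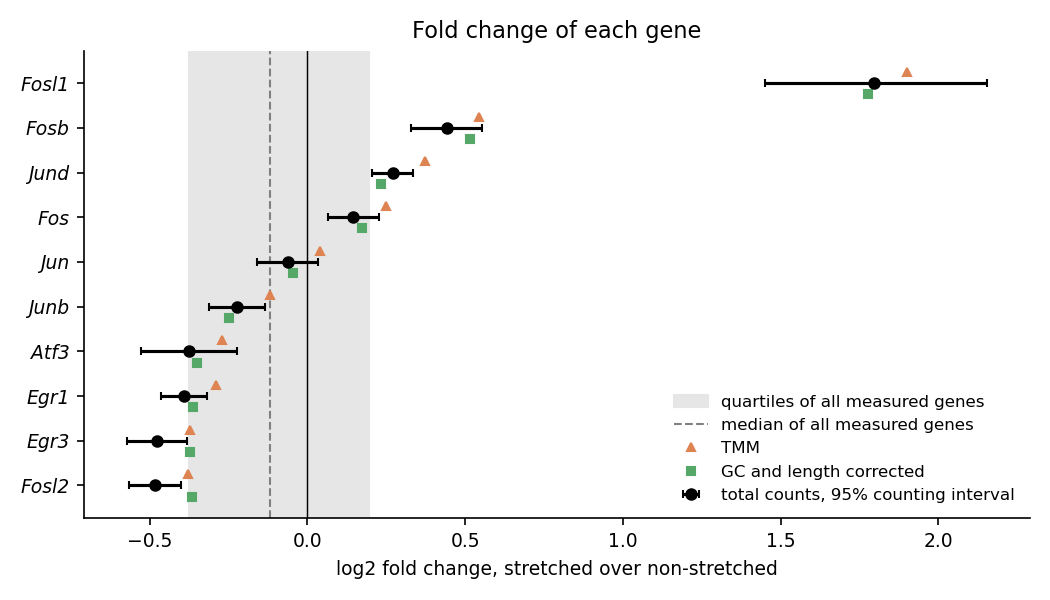
Log2 fold change of stretched over non-stretched skin for each of the 10 genes, with the exact 95% counting interval (black), the value with TMM scaling (triangles) and the value corrected for GC content and length (squares), over the median and quartiles of all measured genes. Fosl1 stands apart at 1.80, and the other genes run from -0.48 to 0.44.

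The Egr genes and Atf3 were lower in stretched skin by similar amounts. Egr1, a zinc finger gene that responds to growth factors and to mechanical load, had 3918 counts (277 CPM) in non-stretched skin and 2457 counts (211 CPM) in stretched skin. Its log2 fold change was -0.39 (interval -0.47 to -0.32). Egr3, a related factor known from muscle spindles and lymphocytes, had 2419 counts (171 CPM) and 1431 counts (123 CPM), a log2 fold change of -0.48 (interval -0.57 to -0.38). Together the 2 genes held 448 CPM and 334 CPM (log2 fold change -0.42, interval -0.48 to -0.37). Atf3, a stress-induced factor that often represses its targets, had 928 counts (65.6 CPM) and 589 counts (50.6 CPM), a log2 fold change of -0.37 (interval -0.53 to -0.22). Egr1 lay at percentile 23.9 of all measured genes, Egr3 at 18.7 and Atf3 at 25.1, near or below the lower quartile. Fosl2 stood with these genes, and none of the 6 pairs among Fosl2, Egr1, Egr3 and Atf3 differed beyond counting error. The widest of these intervals, for Egr3 against Atf3, ran from -0.28 to 0.08 around a difference of -0.10. Of all 45 pairs of the 10 genes, 38 had a difference whose interval excluded 0. Besides the 6 pairs among these 4 genes, the interval included 0 for Junb minus Atf3 (0.15, interval -0.02 to 0.33). The exons of Egr1, Egr3, Atf3, Fosl2, Fos and Fosb overlap no other gene in the annotation, and those of Jun and Junb do so for 7.28% (Junos) and 7.52% (Prdx2) of their bases.

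Levels were compared between genes per length, as FPKM computed from the union of each gene's exons. In non-stretched skin Jund was highest with 166 FPKM. Junb with 79.2 FPKM and Fos with 78.8 FPKM did not differ beyond counting error. Egr1 (61.7 FPKM), Jun (43.4 FPKM), Egr3 (38.8 FPKM), Atf3 (30.4 FPKM), Fosl2 (24.3 FPKM) and Fosb (13.7 FPKM) followed with intervals that did not overlap their neighbours', and Fosl1 was lowest with 3.23 FPKM (interval 2.61 to 3.96). Apart from Fosb and Fosl1, the genes were above 91.3% or more of all genes with a length in this library. In stretched skin Jund was again highest (201 FPKM) and Fosl1 lowest (11.2 FPKM). Fos (87.2 FPKM) stood above Junb (67.9 FPKM), and Fosb (18.6 FPKM, interval 17.6 to 19.6) and Fosl2 (17.4 FPKM, interval 16.6 to 18.2) did not differ beyond counting error. This order depended in part on the length used. With the length of the longest transcript, Junb (101 FPKM) stood above Fos (88.0 FPKM) in non-stretched skin, Egr3 (43.4 FPKM) was level with Jun (43.4 FPKM), and Fosl2 (36.0 FPKM) stood above Atf3 (33.1 FPKM). In stretched skin that length gave Fosb 30.7 FPKM and Fosl2 25.8 FPKM. Jund remained highest and Fosl1 lowest in both libraries with either length. Both lengths include bases that lie inside another gene, 57.2% of the exonic bases of Fosl1 and 52.6% of those of Jund. If shared reads were left out of the counts, the FPKM of these 2 genes is understated. The lowest place of Fosl1 in stretched skin is then uncertain.

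The make-up of the Fos and Jun families differed between the libraries. Of the summed FPKM of the Fos family, Fos took 65.7% in non-stretched and 64.9% in stretched skin. Fosl1 took 2.69% and 8.36%, Fosb 11.4% and 13.8%, and Fosl2 20.3% and 12.9%. Fosl2 was thus above Fosb in non-stretched skin. In stretched skin both took similar shares by the union of exons, whereas the longest transcript gave Fosb 18.5% and Fosl2 15.5%. Of the Jun family, Jund took 57.6% and 64.7%, Junb 27.4% and 21.9%, and Jun 15.0% and 13.4%. Shares within both families rest on the same unknown counting of reads that Fosl1 and Jund share with other genes.

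**Figure D3:**
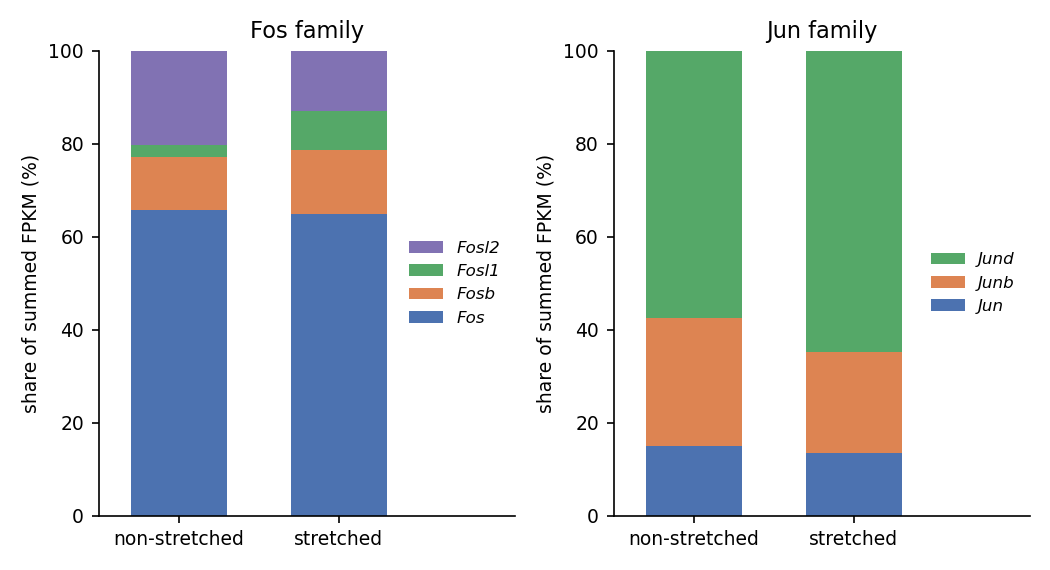
Share of the summed FPKM of the Fos family (left) and of the Jun family (right) taken by each gene in the non-stretched and the stretched library, 1 bar per library. Fosl1 takes 2.69% and 8.36% of the Fos family, and Jund 57.6% and 64.7% of the Jun family. Both genes overlap another gene, and how shared reads were counted is not known.

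Other genes of the pathway were measured as lists in the same libraries, and the counts of each stand beside the 18.1% of all measured genes with intervals above 0 and the 33.5% below 0. The 12 further AP-1 partners had a median log2 fold change of 0.16, with 5 intervals above 0 and 2 below. Batf3, a factor of dendritic cells, had 10 and 32 counts (1.96, interval 0.90 to 3.15), and Batf, known from lymphocytes, had 16 and 30 counts (1.19, interval 0.27 to 2.16). Both rest on few counts. Among partners with at least 100 counts, the highest were Jdp2 (0.29, interval 0.06 to 0.52), Atf4 (0.22) and Mafk (0.22). The lowest were Maf, which macrophages express (-0.33, interval -0.44 to -0.23), Atf7 (-0.18, with 11.7% of its exonic bases inside another gene) and Atf2 (-0.15, interval -0.33 to 0.03). No partner was called by the study's rule.

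Of 34 other immediate early genes, 19 had intervals above 0 (55.9%), 7 below 0 (20.6%) and 8 including 0. Their median was 0.17, beside -0.14 for the 10 genes and -0.12 for all measured genes. Nr4a2, an orphan nuclear receptor gene, had 79 and 159 counts (1.29, interval 0.89 to 1.70), and its relative Nr4a3 had 169 and 277 counts (0.99, interval 0.71 to 1.28). Ctgf, which encodes a matricellular protein, had 1083 and 1751 counts (0.97, interval 0.86 to 1.08), with 23.2% of its exonic bases inside an antisense gene. The lowest with at least 100 counts were Plk3 (-0.48, interval -0.65 to -0.32), Plk2 (-0.40, interval -0.56 to -0.24), both stress-responsive kinases, and Ier5 (-0.40, interval -0.53 to -0.27). These last 3 genes, named as the lowest of their list, lay at percentiles 18.4, 23.3 and 23.4 of all measured genes.

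The kinases and factors that act on immediate early promoters had a median of -0.08 over 23 genes, with 5 intervals above 0 (21.7%), 8 below (34.8%) and 10 including 0. These shares are near the 18.1% and 33.5% of all measured genes. With TMM scaling the median turned to 0.02, with 7 intervals above 0 and 6 below, and the correction for GC content and length left 3 below. Map3k1, a kinase upstream of JNK, had 1253 and 630 counts (-0.71, interval -0.85 to -0.57), Creb1 had 982 and 598 counts (-0.43, interval -0.58 to -0.29), and the p38 activator Map2k3 had 1837 and 1121 counts (-0.43, interval -0.54 to -0.32). Elk3, a ternary complex factor that serves with serum response factor, had 348 and 502 counts (0.81, interval 0.61 to 1.01). Crem (0.44, interval 0.07 to 0.81) and Rps6ka1 (0.21, interval 0.05 to 0.38) came next. Their own levels do not measure kinase activity.

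Of 18 feedback inhibitors, which end the response, 11 had intervals below 0 (61.1%), 2 above (11.1%) and 5 including 0, with a median of -0.35 (-0.21 with the correction for GC content and length). Among genes with 300 or more counts, intervals lay below 0 for 43.3% and above 0 for 20.5%. Dusp2, a nuclear phosphatase of MAP kinases, had 267 and 74 counts (-1.57, interval -1.96 to -1.19), Dusp14 had 647 and 256 counts (-1.06, interval -1.27 to -0.85), and Dusp10, which acts on JNK and p38, had 358 and 165 counts (-0.84, interval -1.11 to -0.57). Dusp1, an immediate early gene itself and a member of both lists, went the other way with 2153 and 2419 counts (0.45, interval 0.36 to 0.53). Zfp36l2 (0.16, interval 0.10 to 0.22) had the other interval above 0, and Spry1 stood at 0.12 (interval -0.03 to 0.27), with 24.4% of its exonic bases inside another gene.

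Of 20 genes described as AP-1 targets 11 had intervals above 0 (55%), 3 below (15%) and 6 including 0, with a median of 0.52. Timp1, an inhibitor of metalloproteinases, had 102 and 642 counts (2.93, interval 2.63 to 3.25), and Spp1, which encodes osteopontin, had 50 and 265 counts (2.69, interval 2.25 to 3.15), with 18.8% of its exonic bases inside another gene. Mmp3, a stromal metalloproteinase, had 460 and 1604 counts (2.08, interval 1.93 to 2.24). Plaur, the urokinase receptor, had 118 and 234 counts (1.27, interval 0.94 to 1.60), and Mmp13 had 4 and 29 counts (3.14, interval 1.63 to 5.11). The lowest were Ccnd1, a cell cycle gene, with 3622 and 1647 counts (-0.86, interval -0.94 to -0.77), Vegfa (-0.63, interval -0.77 to -0.49) and the epidermal gene Ivl (-0.53, interval -0.67 to -0.39). Ccnd1 has 23.4% of its exonic bases inside another gene. The macrophage, fibroblast and hair follicle markers given above differed between the same libraries, and their part in these lists was not tested.

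**Figure D4:**
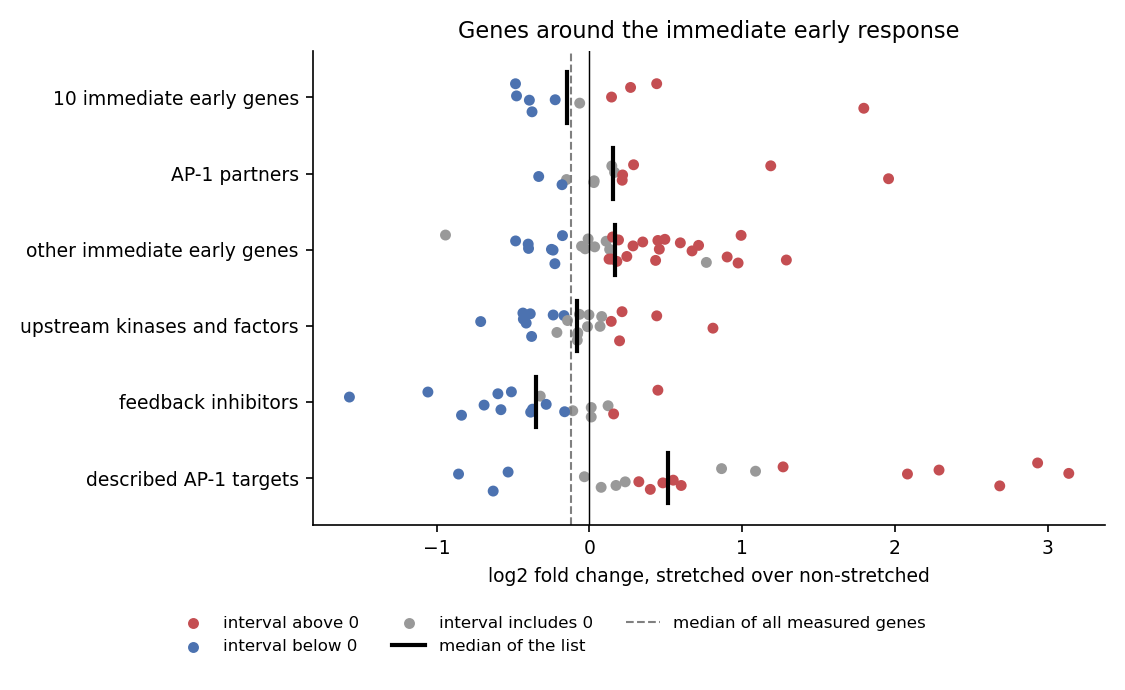
Log2 fold change of stretched over non-stretched skin for each measured gene of the 10 immediate early genes and of 5 pathway lists, 1 point per gene, coloured by whether its 95% counting interval lies above, below or across 0, with the median of each list as a black bar. The medians are -0.14, 0.16, 0.17, -0.08, -0.35 and 0.52 from top to bottom.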

How the data were processed

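RNA from 1 library of non-stretched and 1 library of stretched skin was sequenced from 1 end (76 bases). Per the methods, low-quality reads were removed with FASTX-Toolkit and TopHat2 placed the rest on mm10. The authors estimated and normalized abundances (FPKM) with Cufflinks for their own rule of calls. The table they deposited and used here holds a raw count of reads for each gene symbol, without normalization. The counting program, its annotation and its use of strand are not given in the sources used here.

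CPM was computed from the total count of each library. Intervals of ratios were derived by the exact Clopper-Pearson method from a gene's counts in the 2 libraries, differences between genes carry exact conditional intervals, and levels carry exact Poisson intervals. They cover counting error only, since reads without molecular identifiers are not independent molecules. Counts of 3 or fewer were set to 3 in ratios. FPKM used exon lengths of GENCODE M21, matched by name for 23376 symbols and by synonym for 650, with 395 unmatched. Exon overlaps were taken from the same annotation. No statistical test was made, because each condition has 1 library.

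The genes and lists were chosen with earlier results of these data known. Beyond the 10 genes, the text names the 3 highest and the 3 lowest genes of each list with at least 100 counts, and any gene at least 2-fold apart with at least 20 counts. A gene that this rule would name is not reported here. A few further genes are named as overlapping neighbours or markers. Scaling was varied with the TMM factors of edgeR 4.0.16, the median-of-ratios factors of DESeq2 1.42.0, the upper quartile, and totals that leave out the 50 most abundant genes. Further alternatives were 1 CPM added, a minimum of 20 counts, a correction by medians of 20 bins of GC content and of length, other FPKM settings, and the longest transcript. Leaving out genes with 10% or more of exonic bases inside another gene, the study's rule with nothing added to FPKM, the summed levels and the shares of all genes under each scaling, and the background of genes with 300 or more counts, were added after seeing the data. Python 3.11.15, scipy 1.17.1 and R 4.3.3 were used.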

Additional observations from a re-analysis of the deposited data

How the results depend on the processing

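The scaling alternatives add a single shift to every log2 fold change, which was 0.10 for TMM, 0.11 for both the median of ratios and the upper quartile, and 0.06 for totals that leave out the 50 most abundant genes. They move all genes alike and leave percentiles and differences between genes as they are, but not the number of intervals above or below 0. Over all measured genes, 24.7% lay above 0 and 23.4% below with median of ratios, 24.5% and 23.7% with upper quartile, and 21.6% and 27.4% with totals less the top 50 genes. The median of the 10 genes was -0.040 with TMM, -0.032 with median of ratios and -0.035 with upper quartile, against -0.14. The summed level of the 10 genes, -0.10, stood at 0.012 by the upper quartile, 0.015 by the median of ratios and -0.032 by totals less the top 50 genes. For the Fos family these settings gave 0.11, 0.11 and 0.063. The counts of 4 intervals above 0 and 5 below 0 were the same under these scalings and under the GC and length correction, as were the 1 gene called higher and the 0 called lower by the study's rule under its alternatives. Without the genes that share 10% or more of their exonic bases with another gene (Fosl1 and Jund) the median was -0.30 with 2 intervals above 0.

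The median of the other immediate early genes was 0.27 with TMM, 0.28 with median of ratios and 0.27 with upper quartile, with 4, 3 and 3 intervals below 0. The AP-1 partners had 1 interval below 0 with TMM, median of ratios, upper quartile, totals less the top 50 genes, the GC and length correction, and without overlapping genes. The upstream kinases and factors had 8 intervals above 0 and 5 below 0 with median of ratios and with upper quartile, and 3 below 0 with the GC and length correction. Their median, -0.08, was 0.024 with TMM, 0.032 with median of ratios and 0.029 with upper quartile. Of 60 values of single genes of the 10, 23 moved beyond their counting interval, and Jun alone changed sign, with all 4 scalings. No paired analysis was possible because each condition has a single library. For the same reason leaving out a replicate could not be run.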
